A study of Mus musculus with 4 samples.

Results

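Cxcl12, its receptors Cxcr4 and Ackr3, and the chemokines Cxcl14, Cxcl13, Ccl11 and Ccl19 were followed by cell class and day in the wire-injured mouse carotid artery. The 7 genes were taken by name from the 31053 genes listed in the data, of which 20506 had at least 1 unique molecular identifier (UMI, the tag that marks 1 captured RNA molecule). The tissue was the left carotid artery of C57BL/6 mice, 11 weeks old before injury, male per the study's methods, with no genetic modification or drug named in any group. Single-cell RNA-sequencing was carried out on 1 library from uninjured vessels (day 0) and on 1 library each from vessels taken 3, 7 and 14 days after wire injury, a deep injury of the vessel wall that, per the study's text, also breaks the internal elastic lamina. Carotid arteries of several mice were pooled for each library after thrombosed ones had been discarded, and the pooled tissue was digested enzymatically and freed of dead cells, so that each day was a single sample and no difference between days could be told apart from a difference between libraries. No test between days was therefore possible, and each interval below is a 95% interval that covers counting error only.

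Homeostatic chemokines are made without an inflammatory stimulus and position leukocytes and progenitor cells in tissues. Cxcl12 is produced by stromal cells and acts on the G protein-coupled receptor Cxcr4, which is carried by most leukocytes, while Ackr3 binds Cxcl12 and removes it from the extracellular space. Cxcl14 is a chemokine of many resting tissues whose signalling receptor is not settled. Cxcl13 draws B cells through Cxcr5, Ccl11 (eotaxin) draws eosinophils through Ccr3, and Ccl19 draws dendritic cells and T cells through Ccr7. In the artery wall the adventitia, the outer layer, holds the fibroblasts, the media holds smooth muscle cells, and the endothelium lines the lumen.

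The 6 RefSeq promoters available for the 7 genes (mouse build GRCm38.p6, 250 bases before to 50 bases after the start of the gene) were searched, and those of the 4 genes that the results turn on most are shown, 5′ to 3′ on the strand of the gene. Capitals mark matches, on either strand, to TATAAA (the TATA box), GGGCGG (the GC box) and ACGTG or GCGTG (the core bound by hypoxia-inducible factors). Across 32851 promoters of the same length, TATAAA was held by 13.6%, GGGCGG by 35.7%, ACGTG by 19.6%, GCGTG by 32.4% and either hypoxia core by 43.8%. The coordinates are those of chr6:117168285-117168584 on the plus strand for Cxcl12, chr1:128592250-128592549 on the minus strand for Cxcr4, chr1:90203730-90204029 on the plus strand for Ackr3 and chr13:56296502-56296801 on the minus strand for Cxcl14.
Cxcl12: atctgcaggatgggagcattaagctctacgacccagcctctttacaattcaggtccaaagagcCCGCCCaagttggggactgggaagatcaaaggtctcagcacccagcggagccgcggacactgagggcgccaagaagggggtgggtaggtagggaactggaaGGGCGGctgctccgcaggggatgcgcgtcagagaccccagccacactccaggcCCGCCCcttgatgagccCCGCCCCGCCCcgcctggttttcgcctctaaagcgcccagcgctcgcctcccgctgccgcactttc
Cxcr4: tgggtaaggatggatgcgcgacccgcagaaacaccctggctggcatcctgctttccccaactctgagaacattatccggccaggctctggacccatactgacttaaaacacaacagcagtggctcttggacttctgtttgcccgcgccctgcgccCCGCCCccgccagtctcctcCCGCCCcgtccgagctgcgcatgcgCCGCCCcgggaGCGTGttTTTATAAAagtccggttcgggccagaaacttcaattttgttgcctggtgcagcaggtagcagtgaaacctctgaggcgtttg
Ackr3: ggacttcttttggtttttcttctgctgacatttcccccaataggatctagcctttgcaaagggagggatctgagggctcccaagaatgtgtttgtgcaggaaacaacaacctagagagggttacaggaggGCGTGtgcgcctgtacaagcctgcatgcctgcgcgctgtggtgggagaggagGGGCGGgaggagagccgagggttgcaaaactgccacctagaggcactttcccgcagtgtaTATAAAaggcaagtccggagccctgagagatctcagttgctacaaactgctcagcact
Cxcl14: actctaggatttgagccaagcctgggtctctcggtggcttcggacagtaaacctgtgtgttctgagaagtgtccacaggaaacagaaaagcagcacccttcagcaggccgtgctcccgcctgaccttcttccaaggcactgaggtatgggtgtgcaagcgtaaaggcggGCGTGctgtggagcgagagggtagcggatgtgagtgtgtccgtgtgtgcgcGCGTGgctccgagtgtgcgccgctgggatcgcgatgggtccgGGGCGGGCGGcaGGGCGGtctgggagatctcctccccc
The Cxcl12 window held 5 GC boxes and no match to the other motifs. In the Cxcr4 window there were 3 GC boxes, 1 GCGTG and a TATA box that matched on both strands in overlapping positions. The Ackr3 window held 1 TATA box, 1 GC box and 1 GCGTG, and the Cxcl14 window held 3 GC boxes and 2 GCGTG matches. Of the remaining genes, Cxcl13 and Ccl19 had a promoter entry and Ccl11 was searched for by name only. A match describes the letters in the window and does not show that a factor binds there.

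In order of day, 333, 1689, 3001 and 1138 cell barcodes were deposited, and the totals ranged from 2672722 UMIs on day 0 to 27973418 on day 7. Of these barcodes, 217 occurred in 2 libraries. In 104 of them the day 0 copy was deeper than the day 3 copy, by a median of 21.5 times, in 48 the day 3 copy was deeper than the day 0 copy, by a median of 109.3 times, and in 62 the day 7 copy was deeper than the day 14 copy, by a median of 89.6 times. The interquartile ranges of these ratios were narrow, at 20.2 to 22.9, 105.9 to 116.8 and 84.7 to 92.9. The 214 shallower copies were removed. Values with both copies or with neither are given for several class-level results of the 7 genes that differed. No such value is given for ratios within clusters or for the listed genes. After this step and the filters on quality and doublets, 281, 1405, 2693 and 1029 cells remained, with medians of 7959, 5458, 6317 and 10764 UMIs.

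Clusters were named by resemblance to marker genes, with the 7 genes left out of the clustering. Fibroblast-like cells numbered 232, 118, 188 and 492 on days 0, 3, 7 and 14, and smooth muscle-like cells 11, 101, 73 and 76. The day 0 library was thus made up largely of fibroblast-like cells (82.6%) and held few smooth muscle-like cells, although the media of this vessel consists of smooth muscle. Monocyte/macrophage-like cells numbered 10, 508, 883 and 162, neutrophil-like cells 234 on day 3 and 120 on day 7, T cell-like cells 16, 64, 363 and 94, and 735 cells (13.6%) stayed unnamed. Each fibroblast-like cluster passed 7 or 8 of the 8 fibroblast markers, and each smooth muscle-like cluster 7 of 8. Depth was uneven, and fibroblast-like cells had medians of 8263, 41364, 29452 and 18774 UMIs on days 0, 3, 7 and 14. The unnamed cells included 1 cluster of 342 shallow cells with 5 fibroblast markers, none among its 10 leading genes, that made up 12.6% of day 7 cells, 0.292% of day 14 cells and no cell of days 0 and 3. A further pair of shallow clusters with 6 and 8 fibroblast markers, and 1 each among the leading genes, was kept out by the same rule and made up 2.14%, 4.48%, 1.75% and 3.40%, and 0%, 0.569%, 0.780% and 1.94%, of the cells of days 0, 3, 7 and 14. Levels are given as CPM, the UMIs of the gene divided by all UMIs of the class and day and multiplied by 1000000.

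Cxcl12 was found mainly in fibroblast-like cells on every day with the classes used here, although not under every way of naming the cells on days 0 and 7, and its level in these cells was highest on day 3. It stood at 392 CPM on day 0 (interval 366 to 419), 1484 CPM on day 3 (1452 to 1516), 679.8 CPM on day 7 (659 to 701) and 304 CPM on day 14 (293 to 316), from 872, 8087, 4012 and 2715 UMIs. The order was therefore day 3, day 7, day 0 and day 14, and no interval overlapped that of a neighbour. Relative to day 0, the level was 3.78 times as high on day 3 (3.53 to 4.06), 1.73 times as high on day 7 (1.61 to 1.87) and 0.775 times on day 14 (0.718 to 0.838). Of the genes with at least 20 UMIs in the 2 sums, 11.7% were at least 2-fold higher and 11% at least 2-fold lower on day 3 than on day 0, which gives the background for a call. The median over cells, which a few deep cells cannot move far, followed the same order, with 144, 699, 237 and 73.4 CPM.

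**Figure D1:**
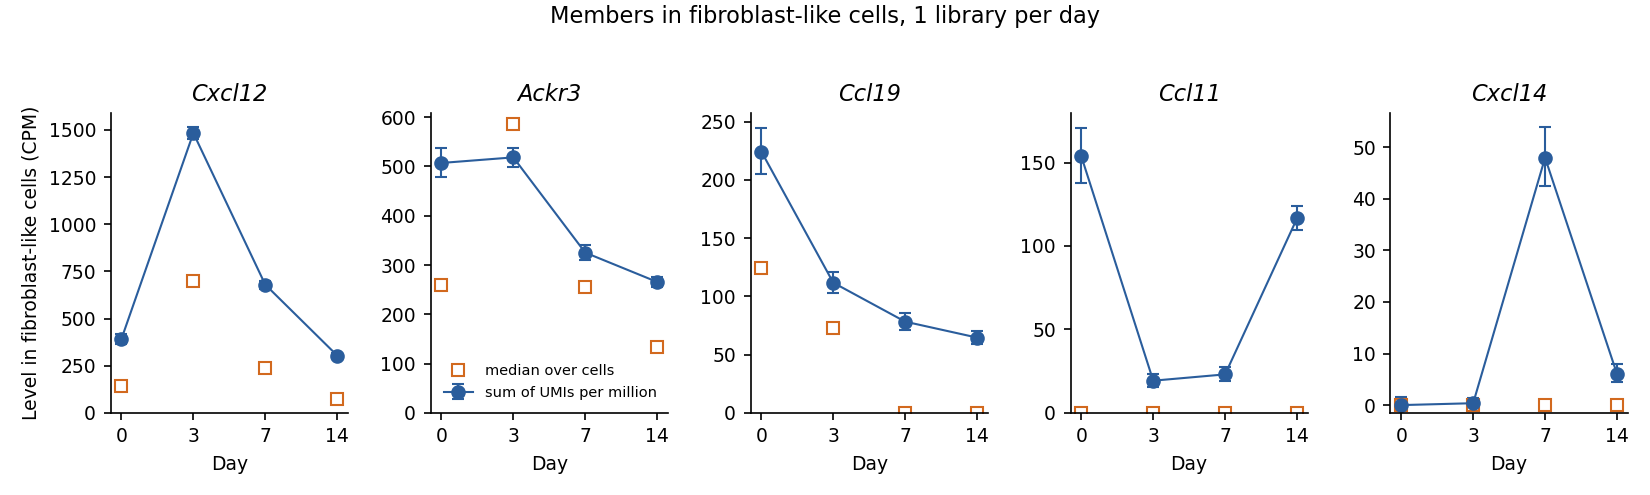
Levels of genes of the set in fibroblast-like cells by day, 1 library per day at even spacing. The vertical axis is CPM, filled circles are levels of the summed UMIs with their exact Poisson 95% intervals, and open squares are the median over cells. Cxcl12 was highest on day 3 at 1484 CPM, while Ccl11 was lower on days 3 and 7 (19.3 and 23.0 CPM) than on days 0 and 14 (154 and 117 CPM).

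A second measure, which does not depend on how deep a cell is, was the share of cells with a Cxcl12 UMI after each cell had been thinned to 1000 UMIs. This share was 18.8%, 47.4%, 36.4% and 19.8% of fibroblast-like cells on days 0, 3, 7 and 14 (unthinned 62.1%, 88.1%, 81.4% and 63.0%), with 24, 2, 1 and 11 shallower cells left out. In neutrophil-like cells, which are not a source of Cxcl12, the thinned share was 1.35% on day 3 and 3.70% on day 7. The deepest cells carried much of the signal. On day 3, 70 of the 118 fibroblast-like cells exceeded 30000 UMIs and held 91.4% of the Cxcl12 UMIs and 89.4% of all UMIs of the class. On day 7 such cells numbered 93 and held 85.9% of Cxcl12, and on day 14 they numbered 47 and held 12.9%. Without them the ratio to day 0 was 3.10 on day 3 and 1.23 on day 7. With every shared barcode left out, day 7 was 0.998 times day 0.

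**Figure D2:**
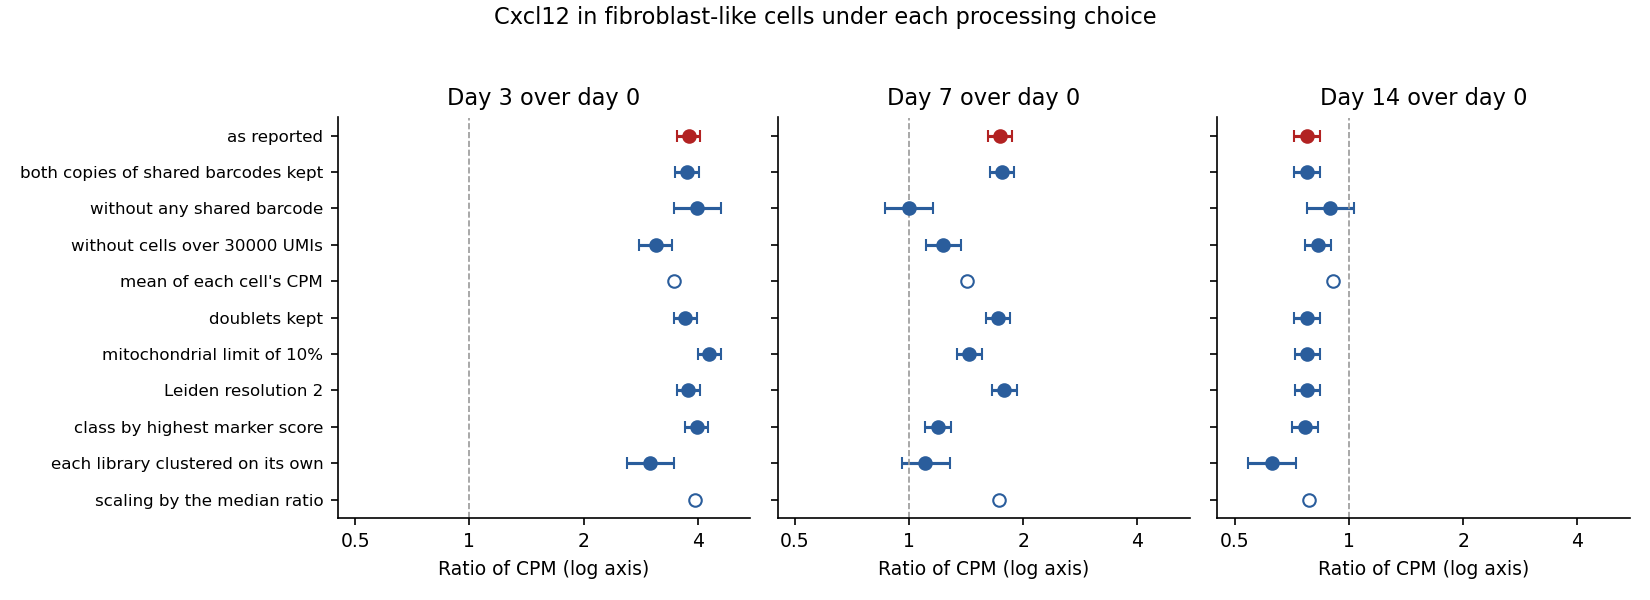
Ratio of Cxcl12 in fibroblast-like cells on days 3, 7 and 14 to day 0 under each processing choice, on a log axis. Points are ratios of CPM, lines are 95% intervals of counting error where the choice allows one, and the dashed line marks a ratio of 1. The day 3 ratios ran from 2.99 to 4.29, whereas the lowest day 7 ratio was 0.998, with every shared barcode left out.

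The fibroblast-like class was made up of different clusters on different days, so Cxcl12 was also compared within clusters. On day 0 the class was mostly cluster C3, led by Dcn, Igfbp7 and Sfrp2, with 206 of the 232 cells. In C3 Cxcl12 stood at 411 CPM on day 0, 834 CPM on day 3 and 701 CPM on day 14, which was 2.03 times as high on day 3 (1.84 to 2.24) and 1.71 times as high on day 14 (1.52 to 1.91). The direction on day 14 within C3 was thus opposite to that of the whole class. In cluster C13, led by genes that include Igfbp5, Clec3b and Pi16, the level was lower on day 14 (146 CPM) than on day 0 (229 CPM), a ratio of 0.637 (0.510 to 0.804). In cluster C5, led by Dcn, Sparc and Col1a1, it was 309 CPM on day 7 and 363 CPM on day 14, a ratio of 1.17 (1.08 to 1.27).

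The highest levels were found in clusters that held no day 0 cell. Cluster C19, led by the acute-phase gene Saa3 and the matrix metalloproteinase gene Mmp3, contained 42 day 3 cells and 23 day 7 cells, with Cxcl12 at 2118 and 1248 CPM. It held 70.3% of the Cxcl12 UMIs of day 3 fibroblast-like cells. Cluster C7.3, led by Timp1 and Serpinh1, reached 1296 CPM in 28 day 7 cells and held 41.6% of the Cxcl12 UMIs of day 7 fibroblast-like cells, while C19 held 31.8% and C5 23.4%. By day 14 C5 held 61.8%. The cells of C19 and C7.3 were deep, with medians of 56131 and 51162 UMIs, and their median doublet scores were 0.0765 and 0.0841, against 0.0528 to 0.0608 in the other fibroblast-like clusters. The part of depth and doublets in these levels was not tested. C7.3 came from the split of a cluster that also gave the smooth muscle-like cluster C7.1. The study describes a day 7 cluster at first annotated as fibroblasts and proposes that it may be an altered form of smooth muscle. Whether C7.3 or C19 corresponds to that cluster was not tested.

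**Figure D3:**
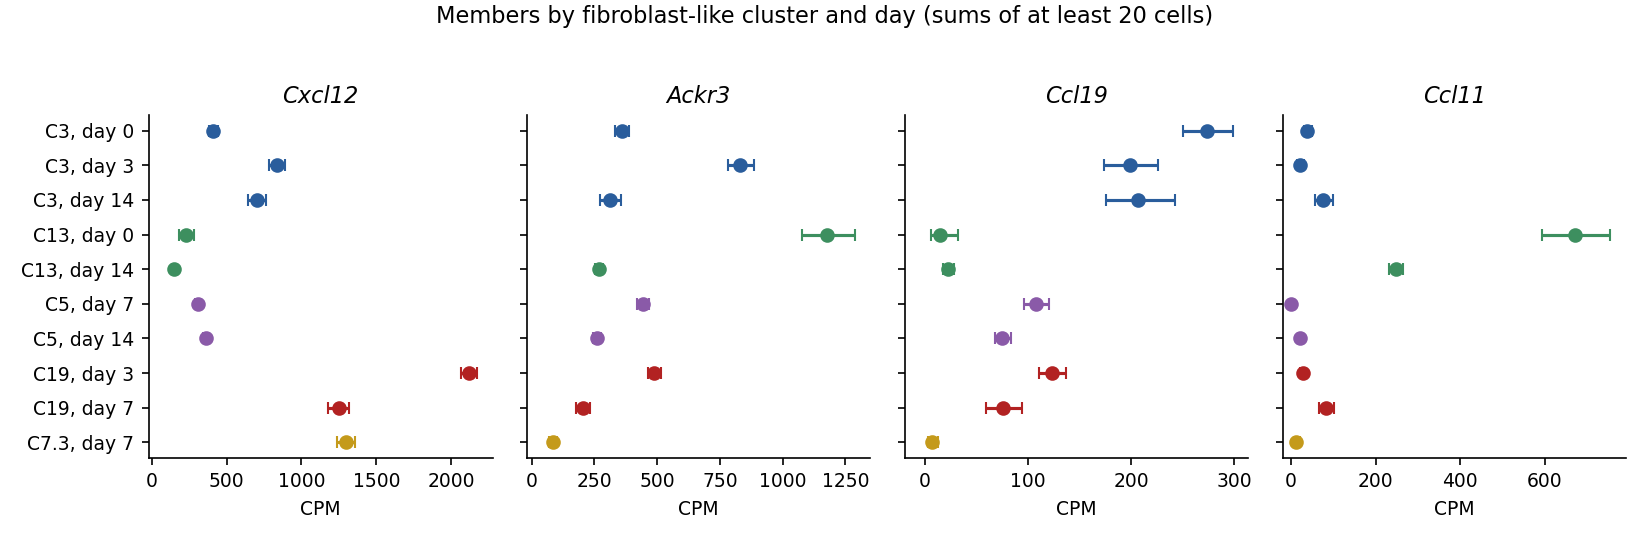
Levels in each fibroblast-like cluster and day with at least 20 cells. The horizontal axes are CPM, points are levels of the summed UMIs and bars are exact Poisson 95% intervals. Cluster C19 had the highest Cxcl12 (2118 CPM on day 3), whereas cluster C13 on day 0 had the highest Ackr3 (1178 CPM) and Ccl11 (671 CPM).

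Smooth muscle-like cells were the second source of Cxcl12 after injury. No Cxcl12 UMI was found in the 11 smooth muscle-like cells of day 0, whose 98227 UMIs allow a level of up to 30.5 CPM at 3 counts, whereas the level was 593 CPM on day 3 (565 to 623), 607 CPM on day 7 (566 to 650) and 134 CPM on day 14 (115 to 156). Set against 3 counts on day 0, day 3 was at least 19.4-fold higher, day 7 at least 19.9-fold and day 14 at least 4.39-fold. The intervals at 3 counts were 6.63 to 94.3, 6.77 to 96.5 and 1.48 to 21.5. Among genes tested in this class, 10.9%, 13.2% and 10.1% were at least 2-fold higher than on day 0 on days 3, 7 and 14. These bounds rest on 11 cells and on the class names, since with each library clustered on its own the day 0 smooth muscle-like class held 85 cells and 413 Cxcl12 UMIs, and the day 14 level was 0.181 times that of day 0. Deep cells weighed here too, since those over 30000 UMIs (38 of 101 on day 3 and 12 of 73 on day 7) held 93.2% and 76.3% of the Cxcl12 UMIs and 80.6% and 56.3% of all UMIs of the class. Without them the day 3 bound was 6.85-fold, and day 7 was 1.57 times day 3 (1.24 to 2.01). With them days 3 and 7 differed by less than counting error (ratio 1.02, 0.940 to 1.11), and day 14 was 0.221 times day 7 (0.186 to 0.261; 0.327 without deep cells), with 8.84% of genes at least 2-fold lower, although 1 deep cell held 34.9% of the day 14 Cxcl12 UMIs. After thinning, 27.0%, 22.1% and 13.9% of smooth muscle-like cells had a Cxcl12 UMI on days 3, 7 and 14.

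Leukocyte RNA in the stromal sums was followed with 8 leukocyte genes, whose summed level in fibroblast-like cells was 36.4, 78.2, 183 and 51.6 CPM on days 0, 3, 7 and 14, and in smooth muscle-like cells 0, 57.3, 156 and 18.7 CPM. In fibroblast-like cells Srgn gave 72 of the 81 UMIs of day 0 and stood at 32.4, 22.2, 28.8 and 27.4 CPM by day. The sum thus understates the day 7 difference of the other leukocyte genes. The 8 genes summed to between 17562 and 20180 CPM in monocyte/macrophage-like cells of days 3 to 14. Their part in the levels of the 7 genes was not tested. Conversely, Cxcl12 in leukocytes was low, at 8.75, 9.87 and 5.76 CPM in monocyte/macrophage-like cells of days 3, 7 and 14 and at 10.4 and 24.3 CPM in neutrophil-like cells of days 3 and 7. Endothelial-like cells were few. Their Cxcl12 was 419 CPM in 39 cells of day 3, where 1 cell held 65.9% of the UMIs, and 204 CPM in 26 cells of day 7, and the ratio of 0.488 (0.369 to 0.650) became 1.17 without cells over 30000 UMIs, while 8.12% of genes were at least 2-fold lower.

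The classes that supplied the Cxcl12 UMIs of each library were then counted. Fibroblast-like cells held 99.4% of 877 Cxcl12 UMIs on day 0, 81.0% of 9986 on day 3, 75.5% of 5317 on day 7 and 92.9% of 2922 on day 14. Smooth muscle-like cells held 16.3%, 15.4% and 5.89% on days 3, 7 and 14. Fibroblast-like cells were only 8.40% of the cells on day 3 and 6.98% on day 7, but they were deep. Their medians were 41364 and 29452 UMIs on these days, against 5458 and 6317 over all cells kept. A share of UMIs depends on depth and cannot be set directly against a share of cells. The shares of Cxcl12 UMIs also depended on the class names. With each library clustered on its own, the day 0 share was 23.0%, with 20 fibroblast-like and 85 smooth muscle-like cells, and the day 7 share 50.7%. When each cell took the class of its highest marker score, the day 7 share was 39.3%.

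**Figure D4:**
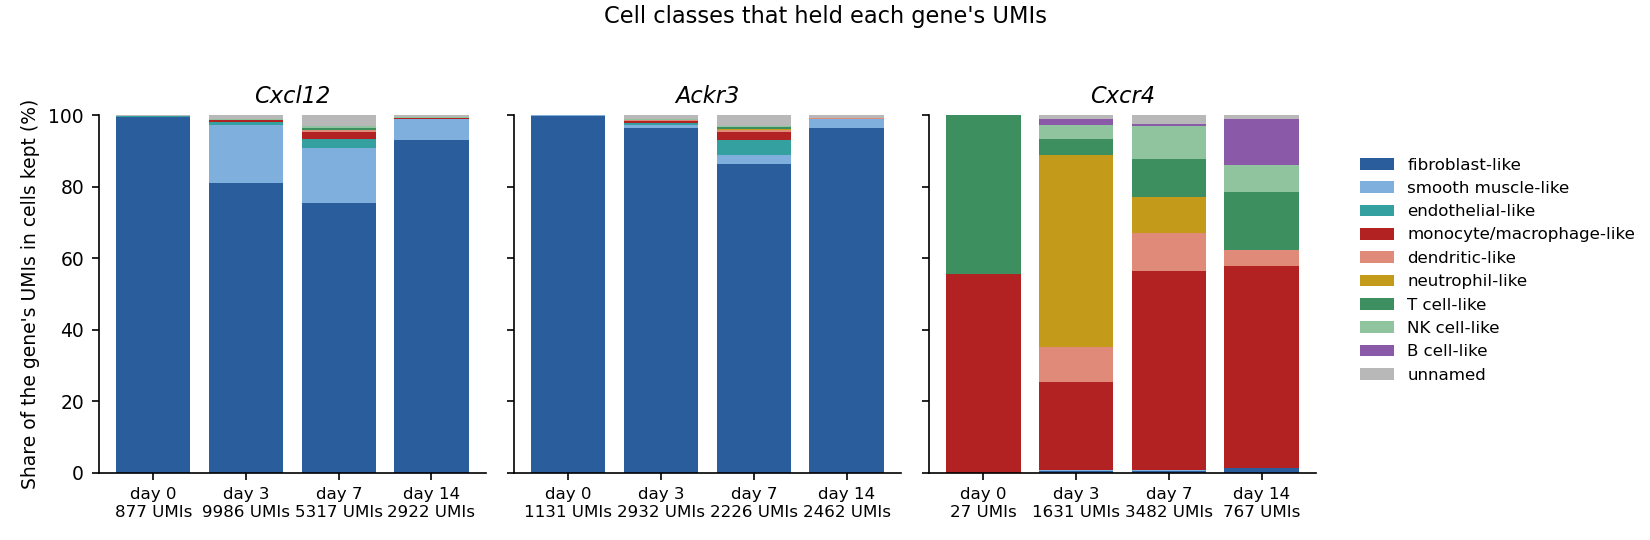
Cell classes that held the UMIs of each gene in the cells kept, by day. Stacked bars give the percentage of the gene's UMIs, and the number of UMIs stands under each bar. With the classes used here fibroblast-like cells held between 75.5% and 99.4% of Cxcl12 (23.0% on day 0 with each library clustered on its own and 39.3% on day 7 by highest marker score), while the Cxcr4 UMIs moved from neutrophil-like cells on day 3 (53.8%) to monocyte/macrophage-like cells on days 7 and 14 (55.5% and 56.5%).

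Ackr3, the receptor that takes up Cxcl12, was also a gene of fibroblast-like cells with the classes used here. These cells held between 86.2% and 99.7% of its UMIs in each library, and the share is not given under other class names. The level was 507 CPM on day 0 (478 to 538), 518.5 CPM on day 3 (499.5 to 538), 325 CPM on day 7 (311 to 340) and 266 CPM on day 14 (255 to 277). Days 0 and 3 were not distinguishable (ratio 1.02, 0.954 to 1.10), and the later days lay below both. The ratio to day 0 was 0.641 on day 7 (0.595 to 0.691) and 0.524 on day 14 (0.488 to 0.563), neither of which reached the 2-fold call. With every shared barcode left out, which left 138 of the 232 day 0 fibroblast-like cells, day 3 was 1.99 times and day 7 1.25 times day 0. With each library clustered on its own, days 3, 7 and 14 were 0.473, 0.348 and 0.245 times day 0.

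Within clusters Ackr3 took several courses. In C3 it was 359 CPM on day 0, 832 CPM on day 3 and 312 CPM on day 14, so that day 3 was 2.32 times day 0 (2.095 to 2.56) and day 14 could not be separated from day 0 (0.867, 0.743 to 1.01). In C13 it was 1178 CPM in the 25 cells of day 0 and 268 CPM in the 170 cells of day 14, a ratio of 0.227 (0.203 to 0.254). C5 was lower on day 14 (261 CPM) than on day 7 (443 CPM), a ratio of 0.588 (0.544 to 0.636). C19 was lower on day 7 (203 CPM) than on day 3 (488 CPM), a ratio of 0.416 (0.358 to 0.482), and C7.3, with high Cxcl12, had Ackr3 at 83.9 CPM on day 7. The clusters highest in the ligand were thus not those highest in the scavenger.

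On no day was Ackr3 seen in a larger share of the cells with Cxcl12 than of those without. Among thinned fibroblast-like cells, Ackr3 was seen in 20.5% of cells with a Cxcl12 UMI and 33.7% of cells without on day 0, in 43.6% and 44.3% on day 3, in 23.5% and 38.7% on day 7, and in 21.1% and 24.1% on day 14. The intervals of the paired shares overlapped on each day. In smooth muscle-like cells Ackr3 was low, at 7.67 CPM on day 3, 42.3 CPM on day 7 and 49.9 CPM on day 14, from 21, 57 and 64 UMIs. Day 7 was 5.51 times day 3 (3.29 to 9.57), against 5.82% of genes at least 2-fold higher in that comparison, and with a mitochondrial limit of 10% the ratio was 0.656. On day 14 a single smooth muscle-like cell of 50011 UMIs held 76.6% of the Ackr3 UMIs. Endothelial-like cells had 91.9 CPM on day 3 and 144 CPM on day 7, and the ratio of 1.56 (0.939 to 2.75) was within counting error.

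Cxcr4, the signalling receptor of Cxcl12, was a gene of leukocytes, and its level differed strongly between classes. Neutrophil-like cells had 1302 CPM on day 3 (1217 to 1391) and 936 CPM on day 7 (840.0 to 1040), a ratio of 0.719 (0.633 to 0.815). B cell-like cells had 777, 477 and 1228 CPM on days 3, 7 and 14 from only 10, 13 and 21 cells, and day 14 was 2.57 times day 7 (1.65 to 4.17), where 9.51% of genes were at least 2-fold higher. NK cell-like cells had 232, 331 and 407 CPM on the same days, T cell-like cells had 113, 189.7, 169.6 and 256 CPM on days 0, 3, 7 and 14, and dendritic-like cells had 70.1, 82.0 and 101 CPM on days 3, 7 and 14. The neighbouring intervals of neutrophil-like and B cell-like cells overlapped on no day on which both were measured, the former being higher on days 3 and 7. By contrast, fibroblast-like cells had no Cxcr4 UMI on day 0 and 1.28, 3.05 and 1.12 CPM thereafter. After thinning to 1000 UMIs, 55.2% of neutrophil-like cells on day 3 and 58.3% on day 7 had a Cxcr4 UMI (unthinned 75.2% and 75.0%), against 0.535% of fibroblast-like cells on day 7.

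**Figure D5:**
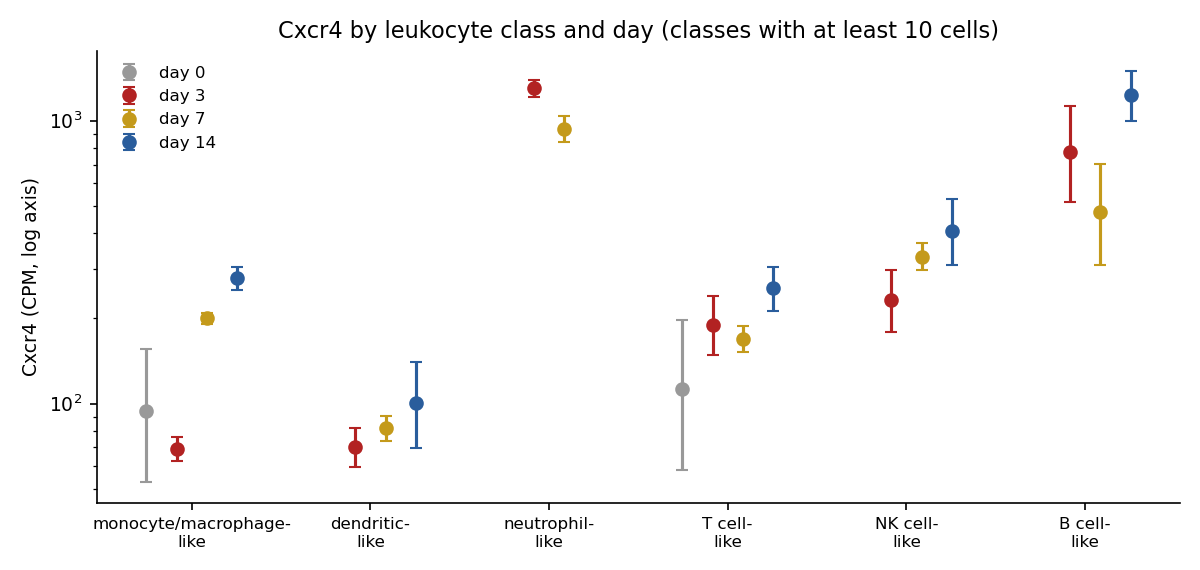
Cxcr4 by leukocyte class and day, for classes with at least 10 cells. The vertical axis is CPM on a log scale, points are levels of the summed UMIs coloured by day, and bars are exact Poisson 95% intervals. Monocyte/macrophage-like cells went from 69.3 CPM on day 3 to 277 CPM on day 14, below neutrophil-like cells on both days on which these were present.

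Monocyte/macrophage-like cells had the clearest difference between days. Cxcr4 stood at 69.3 CPM on day 3 (62.7 to 76.4), 201 CPM on day 7 (192 to 209.8) and 277 CPM on day 14 (252 to 305), from 404, 1932 and 433 UMIs, and at 94.3 CPM in the 10 cells of day 0. Day 7 was 2.89 times day 3 (2.60 to 3.23) and day 14 was 4.00 times day 3 (3.49 to 4.59), while 6.05% and 6.41% of genes were at least 2-fold higher in these comparisons. Day 14 was 1.38 times day 7 (1.24 to 1.53). The thinned share of cells with a Cxcr4 UMI was 10.2%, 17.6% and 18.3% on days 3, 7 and 14. The day 3 class was mostly cluster C8 (290 of 508 cells), led by Lyz2, Ccl6 and Pf4. On day 7 the largest cluster by cells was C1 (376 of 883), which includes Il1b among its leading genes. Cluster C0, led by the complement genes C1qb and C1qa, held more of the UMIs of the day 7 class than C1. The day 14 class was mostly C0 (124 of 162 cells).

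Part of the difference was present within clusters. In C0 Cxcr4 was 46.0 CPM on day 3, 188 CPM on day 7 and 284 CPM on day 14, with day 7 at 4.10 times day 3 (2.84 to 6.12) and day 14 at 1.51 times day 7 (1.32 to 1.73). C16, which has the histone gene Hist1h2ap among its leading genes, went from 40.3 to 92.9 CPM between days 3 and 7, a ratio of 2.31 (1.59 to 3.40), and C8 from 50.3 to 74.1 CPM, a ratio of 1.47 (1.06 to 2.01) that was 1.25 (0.874 to 1.74) without the top cell of day 7. C1 was at a high level on both days, with 289 and 282 CPM, and its ratio of 0.978 (0.820 to 1.17) was within counting error. The share of all Cxcr4 UMIs held by neutrophil-like cells was 53.8% on day 3 and 9.97% on day 7, while monocyte/macrophage-like cells held 24.8%, 55.5% and 56.5% on days 3, 7 and 14. On day 14 T cell-like cells held 16.3% and B cell-like cells 12.9%.

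Cxcl14 was not detected in fibroblast-like cells before injury and was found in few of them afterwards. Fibroblast-like cells had 0 Cxcl14 UMIs on day 0, which allows up to 1.35 CPM at 3 counts, 2 UMIs on day 3, 283 UMIs on day 7 (48.0 CPM, 42.5 to 53.9) and 54 UMIs on day 14 (6.05 CPM, 4.54 to 7.89). Against 3 counts on day 0, day 7 was at least 35.6-fold and day 14 at least 4.48-fold higher, with 12.8% and 9.27% of genes at least 2-fold higher in these comparisons. These bounds were 4.44 and 1.20 with every shared barcode left out, and 7.77 and 0.824 with each library clustered on its own, so that the day 14 call was lost under both. The day 7 UMIs came from 10 of 188 cells, and 1 cell of cluster C19 held 69.3% of them. Day 7 was 131 times day 3 (35.8 to 1084), where 7.1% of genes were at least 2-fold higher. Without that cell the day 7 level was 14.9 CPM (11.9 to 18.4), and without the top cell of day 14 it was 3.25 CPM (2.18 to 4.67). In C19 on day 7, 271 UMIs were found in 5 of 23 cells, whereas C3 held no Cxcl14 UMI on days 0, 3 and 14.

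Monocyte/macrophage-like cells were another source of Cxcl14. They held 58 UMIs in 24 of 508 cells on day 3 (9.95 CPM, 7.56 to 12.9), which was 96.7% of the 60 Cxcl14 UMIs of that library, and 64 UMIs in 27 of 883 cells on day 7 (6.65 CPM, 5.12 to 8.49). The ratio of day 7 to day 3 was 0.668 (0.461 to 0.970), and day 14 had 3 UMIs, a ratio to day 3 of 0.193 (0.0387 to 0.593), with 8.99% of genes at least 2-fold lower. Cluster C8 held 51 of the day 3 UMIs in 19 of its 290 cells, and had 44 cells on day 7. Within C8 and C0, which held most of these UMIs on both days, the ratios were 1.43 (0.774 to 2.52) and 1.28 (0.502 to 4.19). Without the top cell of day 7 they were 1.13 (0.563 to 2.11) and 0.932 (0.352 to 3.11), all within counting error. On day 7 fibroblast-like cells held 79.1% and monocyte/macrophage-like cells 17.9% of 358 UMIs, but cells over 30000 UMIs held 92.2% of the fibroblast-like and 12.5% of the monocyte/macrophage-like UMIs. Without such cells 22 UMIs were left in fibroblast-like and 56 in monocyte/macrophage-like cells, so that which class led on day 7 rested on deep cells.

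With the classes used here, fibroblast-like cells held at least 95.5% of the UMIs of Ccl11, the eosinophil chemokine, in every library. In these cells Ccl11 was lower on days 3 and 7 than before injury. It stood at 154 CPM on day 0 (138 to 171), 19.3 CPM on day 3 (15.8 to 23.3), 23.0 CPM on day 7 (19.3 to 27.3) and 117 CPM on day 14 (109.6 to 124). Days 3 and 7 overlapped in their intervals and both lay below days 0 and 14. The ratio to day 0 was 0.125 on day 3 (0.0997 to 0.156), 0.150 on day 7 (0.122 to 0.183) and 0.758 on day 14 (0.670 to 0.859). For comparison, 11% of genes were at least 2-fold lower on day 3 and 8.71% on day 7. Day 14 was 5.06 times day 7 (4.23 to 6.09), where 7.18% of genes were at least 2-fold higher, while averaging CPM over cells gave 1.65 for the same ratio and 0.549 for day 7 over day 0, which is no 2-fold call. Day 14 was 1.38 times day 0 with every shared barcode left out and 0.180 times with each library clustered on its own.

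The cluster that held most Ccl11 differed between days. C13 held 79.5% of the fibroblast-like Ccl11 UMIs on day 0 and 83.3% on day 14, with 671 CPM and 248 CPM, a ratio of 0.370 (0.322 to 0.425), but none on day 3 and 20.6% on day 7. It had 25 cells on day 0, 1 cell on day 3, 14 cells on day 7 and 170 cells on day 14. On days 3 and 7 it was C19 that held most, with 69.5% and 62.5% of the UMIs in 42 and 23 cells. In C19 Ccl11 was 27.2 CPM on day 3 and 83.0 CPM on day 7, a ratio of 3.05 (2.21 to 4.23) that rested on single cells. The top cell held 63.5% of the day 7 and 42.5% of the day 3 UMIs, and the ratio was 1.15 (0.733 to 1.78) without that of day 7 and 1.94 (1.18 to 3.15) without both, an alternative chosen after seeing the data. Within C3, Ccl11 was 38.9 CPM on day 0, 21.1 CPM on day 3 and 76.2 CPM on day 14, and day 3 was 0.543 times day 0 (0.330 to 0.869), or 0.741 times (0.440 to 1.22) without the top cell of day 0.

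Ccl19, the ligand of Ccr7, was lower on each injured day in the class sums. Its level was 224 CPM on day 0 (205 to 245), 112 CPM on day 3 (103 to 121), 78.3 CPM on day 7 (71.3 to 85.8) and 64.6 CPM on day 14 (59.4 to 70.1). The ratio to day 0 was 0.498 (0.442 to 0.562), 0.349 (0.307 to 0.397) and 0.288 (0.255 to 0.325), with 4.69% of genes at least 2-fold lower on day 14. In C3, which held 98.8% of the day 0 UMIs, the difference was smaller, with 274, 198 and 207 CPM on days 0, 3 and 14 and ratios of 0.725 and 0.756. The other clusters were lower, with 107 CPM in C5 on day 7, 75.0 CPM in C5 on day 14 and 22.3 CPM in C13 on day 14. The day 3 call did not hold without cells over 30000 UMIs, where the ratio was 1.16, or with each library clustered on its own, where the ratios were 4.14, 3.44 and 2.41 on days 3, 7 and 14 from 20 day 0 cells.

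Cxcl13, the B cell chemokine, was at the limit of detection, with 5 UMIs over all barcodes of the 4 libraries. In fibroblast-like cells 1 UMI was found on day 3 and 3 UMIs in a single cell on day 14, and no difference between days could be measured at this depth. Cxcr5, its receptor, was found in B cell-like cells at 153 CPM on day 7 and 124 CPM on day 14, from 8 and 10 UMIs. Ccr3, the receptor of Ccl11, had at most 13 UMIs in any class and day, in T cell-like cells of day 7. Ccr7, the receptor of Ccl19 and a marker used to name dendritic-like cells, was at 250.1, 314 and 489 CPM in these cells on days 3, 7 and 14 and at 687 and 682 CPM in B cell-like cells on days 7 and 14. In T cell-like cells Ccr7 went the other way, with 169, 77.5, 27.2 and 14.3 CPM on days 0, 3, 7 and 14.

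Of the 7 genes, 4 could be tested for a 2-fold difference in fibroblast-like cells on day 3 and 5 on each later day. On day 3 Cxcl12 was called higher and Ccl11 and Ccl19 lower, with a median log2 ratio of -0.49 against -0.05 for all genes. On day 7 Cxcl14 was called higher and Ccl11 and Ccl19 lower (median -0.64 against 0.01), and on day 14 Cxcl14 was called higher and Ccl19 lower (median -0.40 against -0.02). Among all genes 11.7%, 12.8% and 9.27% were higher and 11%, 8.71% and 4.69% lower on days 3, 7 and 14. With each library clustered on its own, the day 14 call of Cxcl14 was lost (a bound of 0.824, and 1.20 without shared barcodes), and Ccl19 turned to 4.14, 3.44 and 2.41 times day 0 on the 3 days. Members of the set therefore differed from each other in direction.

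The other receptors and partners of these chemokines, 8 genes, had 2 members that could be tested in fibroblast-like cells on day 3, and both were lower, where 11% of all genes were at least 2-fold lower. Ackr2, a scavenger of inflammatory CC chemokines, was at 32.4 CPM on day 0 and 6.42, 2.71 and 6.72 CPM on days 3, 7 and 14, with ratios to day 0 of 0.198, 0.0838 and 0.208. Ackr1, an atypical receptor that binds many chemokines, was at 8.09, 0.367, 2.03 and 7.84 CPM on days 0, 3, 7 and 14 (18, 2, 12 and 70 UMIs), with ratios to day 0 of 0.0453 on day 3 (0.00510 to 0.189), 0.251 on day 7 and 0.968 on day 14 (0.570 to 1.73). The median log2 ratio was -3.40 on day 3, -2.79 on day 7 and -1.16 on day 14, when only Ackr2 was called, with 8.71% and 4.69% of all genes lower on days 7 and 14. In monocyte/macrophage-like cells 2 members could be tested between days 7 and 3. Ccr7 was higher (8.02 times, 2.95 to 30.5) and Ccl24, a further eotaxin, was lower (0.363 times, 0.271 to 0.485), with 6.05% of genes at least 2-fold higher and 3.84% lower.

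A list of 14 genes of Cxcr4 signalling and ligand handling had 11 tested members in fibroblast-like cells on day 3, of which 4 were higher and 2 lower, with a median log2 ratio of 0.29. Among all genes 11.7% were higher and 11% lower in this comparison, so that 2 lower of 11 was near the background. Hif1a, the oxygen-sensitive transcription factor gene, was at 55.8 CPM on day 0 and 251, 288 and 114 CPM on days 3, 7 and 14, and its day 3 ratio was 4.50 (3.74 to 5.45). Mif, a cytokine that also binds Cxcr4, was at 117, 444, 277 and 109 CPM, and its day 3 ratio was 3.78 (3.33 to 4.31). Rgs16, a regulator of G protein signalling, had no UMI on day 0 and was at least 7.21-fold higher on day 3. Cd74, a receptor of Mif that leukocytes express strongly, rested on 3 UMIs of day 0, with a ratio of 13.7 (4.57 to 67.7). Of the 8 leukocyte genes, 6 of 7 tested were also called higher on day 3 (median 2.46), and their part was not tested. Dpp4, the protease that inactivates Cxcl12, was at 31.5, 1.65, 6.27 and 50.4 CPM on days 0, 3, 7 and 14, and its day 3 ratio was 0.0525 (0.0230 to 0.105). Arrb1, which encodes a beta-arrestin, was lower at 0.467 (0.320 to 0.684). Dpp4 was thus lowest on the day on which Cxcl12 was highest in the sums of this class. The mix of clusters differed as well, and C13 gave 18.2%, 0.830%, 6.45% and 39.2% of the class UMIs on days 0, 3, 7 and 14. Dpp4 is not given within clusters, and the part of this mix was not tested.

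On day 7 all 14 of these genes could be tested, and 6 were higher and 2 lower (median 0.47), where 12.8% of all genes were higher and 8.71% lower. Rgs16 was at least 9.80-fold and Rgs1 at least 8.67-fold higher, Cd74 (129.5 times, 44.2 to 629) and Rgs2 (15.3 times, 4.09 to 128) rested on 3 and 2 UMIs of day 0, Hif1a was 5.16 times and Mif 2.36 times day 0, while Dpp4 (0.199) and Arrb1 (0.315) were lower. The 8 leukocyte genes moved with this list, with 7 of 8 called higher (median 3.96) and a summed level of 183 CPM against 36.4 CPM on day 0, and their part was not tested. On day 14 all 14 could be tested in fibroblast-like cells, of which 4 were higher and 2 lower (median 0.11), where 9.27% of all genes were higher and 4.69% lower. The higher genes were Rgs2 (15.1 times, from 121 and 2 UMIs), Cd74 (6.89 times), Rgs16 (at least 4.81-fold) and Hif1a (2.05 times, 1.70 to 2.49). The lower genes were Grk3, a receptor kinase (0.443 times, 0.184 to 1.14, an interval that includes 1), and Arrb1 (0.444 times). Of the 8 leukocyte genes, 3 of 4 tested were called higher on day 14 (median 1.18), and their part was not tested. In monocyte/macrophage-like cells 13 genes of this list could be tested between days 7 and 3, and only Rgs1 was called, at 3.20 times (3.00 to 3.42), where 6.05% of all genes were higher. Rgs1, which dampens chemokine receptor signalling, stood at 185, 592 and 1822 CPM on days 3, 7 and 14, the same order as Cxcr4 in these cells.

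Among 14 stromal niche factors, 10 could be tested in fibroblast-like cells on day 3. Pdpn (podoplanin) was higher at 5.43 times (4.42 to 6.73) and the adhesion molecule gene Vcam1 at 3.56 times (3.12 to 4.09), while Lifr (0.274, 0.212 to 0.352) and Angpt1 (0.335, 0.203 to 0.548) were lower, and the median log2 ratio was -0.34, where 11.7% of all genes were higher and 11% lower. On day 7, 2 of 10 were higher, Vcam1 (4.67 times) and Pdpn (2.74 times), and 4 were lower, Kitl (0.216), Lifr (0.2505), Angpt1 (0.338) and the transcription factor gene Ebf1 (0.470), with a median of -0.52 and with 12.8% of all genes higher and 8.71% lower. On day 14, 12 could be tested. Pdpn was 2.04 times day 0 and the macrophage growth factor gene Il34 at least 3.24-fold higher, whereas Kitl, the ligand of Kit, was 0.420 times day 0 (0.296 to 0.599), with a median of 0.21 and with 9.27% of all genes higher and 4.69% lower. In monocyte/macrophage-like cells between days 7 and 3, Vcam1 was 3.45 times as high and Bst1 0.380 times, of 7 tested genes with a median of -0.62, where 6.05% of all genes were higher and 3.84% lower.

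Of 6 other homeostatic chemokines, 4 could be tested in fibroblast-like cells on each injured day. Ccl27a, a chemokine of skin-homing T cells, was 0.446 times day 0 on day 3 (0.313 to 0.637), where 11% of all genes were at least 2-fold lower, and none was called on day 14, with medians of -0.16 and -0.30. On day 7 Cx3cl1, the ligand of Cx3cr1, was 2.05 times (1.38 to 3.17) and Ccl27a 0.477 times day 0 (0.339 to 0.673), with a median of 0.24 and with 12.8% of all genes higher and 8.71% lower. In monocyte/macrophage-like cells 4 could be tested between days 7 and 3. Cxcl16, the ligand of Cxcr6, was 2.40 times as high (2.25 to 2.57) and Cx3cl1 3.63 times as high (1.06 to 19.2, from 18 and 3 UMIs), with a median of 1.08 against -0.12 for all genes, of which 6.05% were at least 2-fold higher.

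Lastly, genes with a pattern like each member were sought as a description, by Pearson correlation of log2(CPM + 10) over 24 class-by-day sums of at least 20 cells, among 12665 genes with at least 100 UMIs. These sums share libraries and depth, and the clusters that hold a gene's cells set much of the correlation. Closest to Cxcl12 were Fkbp10 (0.980), Maged1 (0.972) and Serpinh1 (0.972). Closest to Ackr3 were Prickle1 (0.973), Flrt2 (0.964) and Cpne8 (0.964). Cxcr4 was nearest to Pag1 (0.967), Dusp2 (0.963) and Nfkbid (0.957), and Ccl11 to Scn7a (0.997), Lrrn4cl (0.988) and Tmem100 (0.988). Cxcl14 had no gene as near, with Prss35 (0.807), Myo7a (0.778) and Lgr5 (0.776) at the head of its list.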

How the data were processed

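The values deposited for each of the 4 droplet 3′ libraries are unnormalized counts of UMIs by gene and barcode, which the authors made with Cell Ranger (3.0.2 per the file headers, whereas the methods name another version). The build given names a human assembly, so no coordinates were read from it. Barcodes under 200 genes or over 20% mitochondrial UMIs were removed (453 of 6161), then the highest Scrublet scores at 0.8% per 1000 barcodes (106), since the caller's own threshold marked 0.276% (12 barcodes of day 0, where 1 was removed, and 1, 2 and 2 of days 3, 7 and 14). Where a barcode was in 2 libraries, the copy with over 5 times fewer UMIs was removed, a step chosen after seeing the data. The 4 libraries were clustered together (scanpy 1.11.5, leidenalg 0.10.2) with 2000 variable genes, 30 components, 15 neighbours and resolution 1, leaving out the 7 genes and the listed genes other than markers. A cluster was named from 3 or more markers, unless another class matched or led it in markers or, at a median depth under 0.333 of its library's, fewer than 2 of its markers were among its 10 leading genes, and its class does not come from the study's own annotation. UMIs were summed by class and day. Levels carry exact Poisson intervals, and ratios and shares exact binomial (Clopper-Pearson) intervals. A call is a 2-fold difference with at least 20 UMIs in both sums together. A count of 0 was set to 3 counts for a fold. Sums were tested on simulated data. Apart from the leukocyte genes, all called genes of a list are named for the comparisons given. The 7 genes and the lists were chosen with earlier results of these data known.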

Additional observations from a re-analysis of the deposited data

Results flagged for a closer look

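Several genes differed between days in opposite directions in different cell classes, with both intervals of counting error excluding 1. Each day is 1 library, and the differences between classes were not tested. Ackr3 on day 7 was 5.51 times day 3 in smooth muscle-like cells (57 and 21 UMIs) and 0.627 times day 3 in fibroblast-like cells. With a mitochondrial limit of 10% the smooth muscle-like ratio was 0.656, so the directions were no longer opposite. Cxcl12 on day 14 was at least 4.39 times day 0 in smooth muscle-like cells, where day 0 had 0 UMIs in 11 cells, and 0.775 times day 0 in fibroblast-like cells. With each library clustered on its own, the ratios were 0.181 (85 day 0 cells with 413 UMIs) and 0.626, in the same direction. Cxcl14 on day 7 was 131 times day 3 in fibroblast-like cells (283 and 2 UMIs, with 69.3% of the 283 in 1 cell) and 0.668 times in monocyte/macrophage-like cells, but 1.43 (0.774 to 2.52) and 1.28 times (0.502 to 4.19) within their clusters C8 and C0. Without the top day 7 cell of each cluster these were 1.13 (0.563 to 2.11) and 0.932 times (0.352 to 3.11).

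Cxcr4 on day 7 was 2.89 times day 3 in monocyte/macrophage-like cells and 1.43 times in NK cell-like cells, whereas it was 0.719 times in neutrophil-like cells. Between days 14 and 7 it was 1.38 times as high in monocyte/macrophage-like cells, 1.51 times in T cell-like cells and 2.57 times in B cell-like cells (99 and 25 UMIs), against 0.367 times in fibroblast-like cells, where it rested on 10 and 18 UMIs. In the same comparison the 8 leukocyte genes in fibroblast-like cells stood at 51.6 CPM on day 14 and 183 CPM on day 7, and their part was not tested.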

How the results depend on the processing

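Each choice was changed on its own, and with 1 library per day the values below are ratios and shares without a test. The limits were the single library per day, the 20 to 234 fibroblast-like cells of day 0 that the alternatives gave, and the deep cells of days 3 and 7. Of the ratios and shares that answer the main comparisons, 85 stayed within the counting interval of the reported value, 60 moved out of it and 1 changed direction, and of the others 253 stayed, 85 moved and 11 changed direction. The cause of these shifts was not tested. Scaling by the median ratio of genes moved none.

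Clustering each library on its own gave Cxcl12 ratios to day 0 in fibroblast-like cells of 2.99, 1.10 and 0.626 on days 3, 7 and 14, Cxcl14 bounds of 7.77 and 0.824 on days 7 and 14 from 20 day 0 cells, and a Cxcr4 ratio in monocyte/macrophage-like cells of 2.53 for day 7 over day 3. The fibroblast-like share of Cxcl12 was then 23.0%, 50.7% and 96.3% on days 0, 7 and 14, the monocyte/macrophage-like share of Cxcr4 on day 0 was 0%, Ccl19 was 4.14, 3.44 and 2.41 times day 0 on days 3, 7 and 14, and smooth muscle-like Cxcl12 on day 14 was 0.181 times day 0. With the class of the highest marker score, Cxcl12 was 1.19 times day 0 on day 7, Cxcr4 4.71 times day 3 on day 14, the Cxcl12 shares were 98.1%, 77.1%, 39.3% and 88.6% on days 0, 3, 7 and 14, and the Cxcr4 shares 0%, 16.6%, 43.3% and 49.7%.

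Without cells over 30000 UMIs, Cxcl12 was 3.10 and 1.23 times day 0 on days 3 and 7, its shares were 69.6%, 50.3% and 95.02% on days 3, 7 and 14, Ccl19 on day 3 was 1.16 times day 0, and endothelial-like Cxcl12 on day 7 was 1.17 times day 3. With a mitochondrial limit of 10%, Cxcl12 was 4.29 and 1.44 times day 0 on days 3 and 7, its shares were 68.5% and 52.2%, the Cxcr4 shares of days 0 and 3 were 32.0% and 22.4%, and smooth muscle-like Ackr3 on day 7 was 0.656 times day 3. The mean of each cell's CPM gave Cxcl12 ratios of 3.46, 1.42 and 0.906 to day 0, Cxcr4 ratios of 2.18 and 2.82 to day 3, and an endothelial-like Cxcl12 ratio of 1.15.

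Leaving out every shared barcode gave Cxcl12 ratios of 0.998 and 0.893 to day 0 on days 7 and 14, Cxcl14 bounds of 4.44 and 1.20, Cxcl12 shares of 97.7%, 75.3% and 59.8% on days 0, 3 and 7, a day 0 Cxcr4 share of 7.69%, Ackr3 on day 7 at 1.25 times and Ccl11 on day 14 at 1.38 times day 0, and endothelial-like Cxcl12 at 1.08. With both copies kept, the Cxcl12 shares were 93.8%, 80.3% and 91.7% on days 0, 7 and 14. These last alternatives were chosen after seeing the data. Keeping doublets gave a Cxcr4 ratio of 2.59 on day 7 and a day 14 Cxcl12 share of 91.8%, and resolution 2 gave a day 7 share of 79.4%. Thinning to 2000 UMIs gave 35.3%, 68.5%, 44.4% and 30.6% of fibroblast-like cells with Cxcl12 and 68.2% of day 3 neutrophil-like cells with Cxcr4, and without thinning these were 62.1%, 88.1%, 81.4% and 63.0%, and 75.2% and 75.0% on days 3 and 7.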

Other observations

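Cells that received no class also held some of these genes. Cxcl12 in unnamed cells stood at 408 CPM in 121 cells of day 3 (338 to 487), 223 CPM in 499 cells of day 7 (189.9 to 259) and 90.8 CPM in 107 cells of day 14 (53.8 to 144). Ackr3 in the same cells was 121, 89.0 and 101 CPM, and Cxcr4 was 57.3, 111 and 45.4 CPM. These cells are a mixture of clusters that differed in Cxcl12 and Cxcr4. Cluster C7.0 held 163 Cxcl12 and 1 Cxcr4 UMIs and C7.2 26 and 1, whereas C9.1 held 5 and 38. The largest of them, C6.0 with 342 cells, held both genes, with 95 Cxcl12 and 41 Cxcr4 UMIs.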
